A study of Homo sapiens with 24 samples.

Results

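Apoptosis can be started from outside a cell by death receptors of the tumor necrosis factor (TNF) receptor superfamily. The ligand TRAIL, the product of TNFSF10, binds the receptors DR4 (TNFRSF10A) and DR5 (TNFRSF10B), and TNF binds TNFR1 (TNFRSF1A). Engaged TRAIL receptors gather the adaptor FADD and procaspase-8 (CASP8), whose activation at the receptor is restrained by c-FLIP (CFLAR), whereas caspase-9 (CASP9) is activated on the apoptosome after cytochrome c leaves the mitochondria. Messenger RNA of these genes was followed in SKBR3 cells, a human breast cancer line with ERBB2 amplification, by selecting the gene symbols TNFSF10, TNFRSF10A, TNFRSF10B, TNFRSF1A, FAS, CFLAR, CASP8 and CASP9. Of these 8 symbols, 7 were among the 14493 genes of the read-count table, and FAS was not analysed here.

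The study asked how therapy-induced senescence (TIS) produced by blocking fatty acid synthesis compares with TIS produced by other drugs. It comprised 24 RNA-seq libraries in 8 groups of 3 replicates, all from the same cell line. The 6 TIS groups were collected at day 7 after refeeding at day 3, and received ND-646 at 250 nmol/L (an inhibitor of acetyl-CoA carboxylase), TVB-3166 at 250 nmol/L (an inhibitor of fatty acid synthase), bleomycin at 10 µmol/L or doxorubicin at 10 nmol/L (both DNA-damaging), alisertib at 500 nmol/L (an Aurora kinase A inhibitor), or palbociclib at 1 µmol/L (a CDK4 and CDK6 inhibitor, spelled Palboclib in the labels). The other 2 groups were untreated, as proliferative cells at day 0 and as control cells at day 7. The labels name no refeeding for the day-7 controls, so against them drug and refeeding cannot be told apart. The day-0 cells differ from every TIS group by drug, time in culture and refeeding together, and against them these cannot be told apart. The labels do not say whether replicates came from separate cultures, so p-values measure the spread between these samples. Total counts ranged from 29405121 to 44316330 per library. ERBB2 lay between 5121 and 8827 CPM (read counts scaled to the size of the library) and KRT8 between 1815 and 5867 CPM in all libraries, while PTPRC, CD3E, COL1A2 and PECAM1, of the 6 genes taken to mark other cell types, were not listed. The fibroblast gene COL1A1 lay between 6.43 and 15.3 CPM. CD68, a lysosomal protein gene used to mark macrophages, had a mean of 5.40 CPM at day 0 and 5.62 CPM in untreated day-7 cells, and of 46.7 CPM with ND-646, 42.1 with bleomycin, 28.5 with TVB-3166, 10.8 with palbociclib, 9.77 with doxorubicin and 5.21 with alisertib. Its part in the results was not tested. In bulk RNA fewer expressing cells and less RNA per cell cannot be told apart.

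On GRCh37, the build used for alignment, TNFSF10 lies at chr3:172223298-172241265, TNFRSF1A at chr12:6437923-6451280 and CASP9 at chr1:15817327-15853029, all on the minus strand. CFLAR at chr2:201980877-202041410 and CASP8 at chr2:202098166-202226559 are close neighbours on the plus strand. Genes on the opposite strand overlap TNFRSF10A (TNFRSF10A-AS1), TNFRSF10B (RHOBTB2), CFLAR (CFLAR-AS1), CASP8 (FLACC1) and CASP9 (CELA2B). The library kit kept strand, but the sources used here do not state whether the counting used it, so reads of such pairs may not be separated.

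Before the values, the sequences upstream of TNFSF10 and CASP8 are shown. Of all pairs of the 7 genes, these had the highest Pearson r of log2 levels across libraries. A promoter window of each held the core of the interferon-stimulated response element. Whether the motif and the correlation are linked was not tested. RefSeq promoter windows (build GRCh38.p14), running from 250 bases before to 50 bases after a start site, were found for 5 of the 7 genes and numbered 11. Both strands were searched for GAAANNGAAA, the core that factors of the IRF and STAT families recognize. It occurred in 2 of the 11 windows, 1 of TNFSF10 and 1 of the 3 of CASP8, and in 3.57% of all 35116 windows of that length. Capitals mark the match, read here from the opposite strand, and the last 20 bases of each sequence follow the start site. TNFSF10 is given at chr3:172523411-172523680 on the minus strand and CASP8 at chr2:201233213-201233482 on the plus strand.
TNFSF10: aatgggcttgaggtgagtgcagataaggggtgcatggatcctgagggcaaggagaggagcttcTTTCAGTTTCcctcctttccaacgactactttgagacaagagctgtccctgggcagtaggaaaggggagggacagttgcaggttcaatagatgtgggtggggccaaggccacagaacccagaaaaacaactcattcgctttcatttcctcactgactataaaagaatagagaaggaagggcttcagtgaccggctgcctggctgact
CASP8: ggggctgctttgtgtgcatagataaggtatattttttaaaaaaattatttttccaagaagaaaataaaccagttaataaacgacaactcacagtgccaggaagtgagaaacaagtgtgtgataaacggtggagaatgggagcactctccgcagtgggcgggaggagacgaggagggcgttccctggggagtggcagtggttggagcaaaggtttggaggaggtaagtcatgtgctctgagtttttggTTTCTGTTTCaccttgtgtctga

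Counted from the start site, the match began at position -187 in TNFSF10 and at -3 in CASP8. The window of CASP8 also held the GAS element TTCNNNGAA once, which was present in 7.66% of all windows and did not overlap the other match. The NF-kB core GGGNNTTTCC, present in 1.91% of all windows, was in none of the 11. These matches describe letters only, and binding was not measured.

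Relative to proliferative day-0 cells, TRAIL, DR5 and c-FLIP messages rose in all 6 TIS groups, and caspase-8 message rose in 5. TNFR1 and caspase-9 messages rose in 3 groups each, whereas DR4 message passed the test upward in none and fell in palbociclib TIS cells. With edgeR's quasi-likelihood test and a Benjamini-Hochberg adjusted p under 0.05, 5 of the 7 genes were higher in ND-646 TIS cells, beside 19.1% of all genes tested. In TVB-3166 TIS cells 6 were higher, beside 27.4% of all genes. In bleomycin TIS cells 6 were higher, beside 24.1%. The doxorubicin group had 4 higher, beside 23.7%, and the alisertib group had 3, beside 17.7%. In palbociclib TIS cells 5 were higher, beside 26.0%, and 1 was lower, beside 27.2%. These comparisons share the same day-0 libraries, so they are not independent of each other. By the rule of at least 2-fold with an unadjusted p under 0.05, TNFSF10 passed in all 6 groups and TNFRSF10B in ND-646 and TVB-3166 TIS cells, and no other member passed in any. By that rule 11.4% of all genes tested were higher with ND-646, 10.9% with TVB-3166 and 11.5% with bleomycin. The shares were 10.0% with doxorubicin, 6.47% with alisertib and 10.5% with palbociclib. Against untreated day-7 cells DR5 message passed the adjusted threshold only with ND-646 and TVB-3166, and TRAIL message did not pass it with alisertib.

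**Figure D1:**
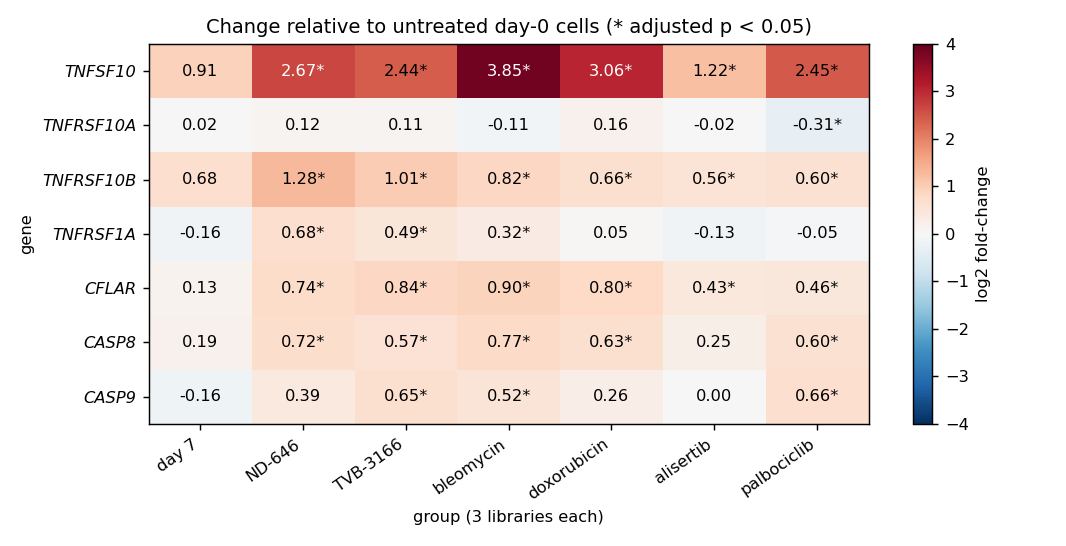
Log2 fold-change of the 7 genes (vertical axis) in each day-7 group relative to untreated day-0 cells (horizontal axis, 3 libraries each), with color for the size and an asterisk for an adjusted p under 0.05. TNFSF10 has the largest changes, from 1.22 in alisertib to 3.85 in bleomycin TIS cells, and TNFRSF10A stays between -0.31 and 0.16.

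TNFSF10 had the lowest level per length of the 7 genes in proliferative cells, at 0.488 CPM per kilobase of its reference transcript, and its group means spanned 14.2-fold. Its level in the day-0 libraries was 0.509, 1.47 and 0.769 CPM, from 20 to 46 reads. In untreated day-7 cells it was 1.49, 2.32 and 1.28 CPM. The lowest day-7 value thus lay below the highest day-0 value, and the difference did not pass the test (log2 fold-change 0.91 ± 0.40, SE, adjusted p = 0.198). Bleomycin TIS cells held 10.996, 13.5 and 14.5 CPM, the highest levels of any group. Doxorubicin TIS cells held 5.77, 8.46 and 8.19 CPM. Every library of both DNA-damaging groups was above every untreated library.

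The lipogenesis inhibitors gave intermediate TRAIL message levels. They were 5.27, 5.72 and 6.38 CPM with ND-646 and 4.08, 5.79 and 4.75 CPM with TVB-3166. Palbociclib TIS cells, at 3.94, 6.25 and 4.69 CPM, overlapped both of these groups. Alisertib TIS cells, at 1.92, 2.53 and 1.89 CPM, were above all day-0 libraries but overlapped untreated day-7 cells. Relative to day 0, the log2 fold-change of TNFSF10 was 3.85 ± 0.34 (SE) with bleomycin (14.4-fold, adjusted p = 5.25e-05) and 3.06 ± 0.34 with doxorubicin (8.33-fold, adjusted p = 0.000104). It was 2.67 ± 0.38 with ND-646 (adjusted p = 0.00086), 2.44 ± 0.34 with TVB-3166 (adjusted p = 0.000121) and 2.45 ± 0.35 with palbociclib (adjusted p = 0.00023). With alisertib it was 1.22 ± 0.36 (adjusted p = 0.0224). That last call was lost without alisertib replicate 2 (1.06, adjusted p = 0.0884), without alisertib replicate 3 (1.29, adjusted p = 0.0553) or without day-0 replicate 3 (1.11, adjusted p = 0.0657). Against untreated day-7 cells TNFSF10 with alisertib was 0.33 (adjusted p = 0.402).

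**Figure D2:**
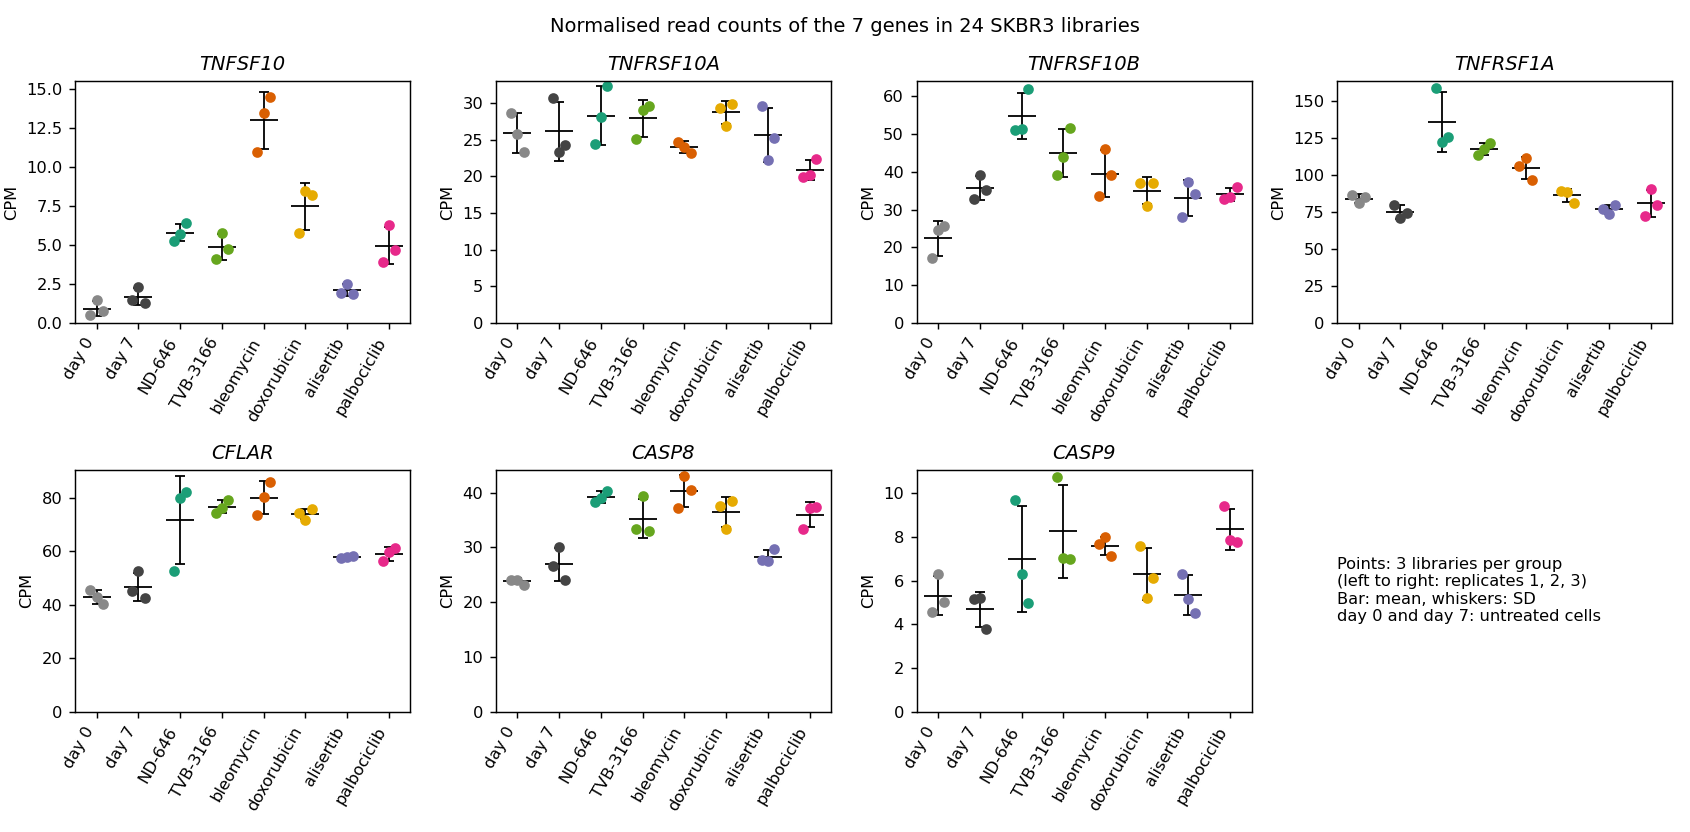
CPM of each of the 7 genes (vertical axes, which start at 0 and differ between panels) in the 3 libraries of each of the 8 groups, with the mean and SD. TNFSF10 ranges from 0.509 CPM in a day-0 library to 14.5 CPM in a bleomycin library, whereas all 24 libraries of TNFRSF10A lie between 19.97 and 32.4 CPM.

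The receptors of TRAIL did not move together. DR5 message (TNFRSF10B, at chr8:22877646-22926544 on the minus strand in GRCh37) was 17.1, 24.7 and 25.6 CPM in proliferative day-0 cells. ND-646 TIS cells held 51.1, 51.4 and 61.9 CPM, and TVB-3166 TIS cells held 39.1, 44.03 and 51.7 CPM. All libraries of the lipogenesis-inhibitor groups were above the day-0 libraries. The log2 fold-change was 1.28 ± 0.19 (SE) with ND-646 (2.43-fold, adjusted p = 0.00113) and 1.01 ± 0.16 with TVB-3166 (2.01-fold, adjusted p = 0.000305). It ranged from 0.56 with alisertib to 0.82 with bleomycin in the other 4 TIS groups, all past the threshold. The alisertib call was lost without alisertib replicate 2 (0.46, adjusted p = 0.0931) or replicate 3 (0.54, adjusted p = 0.075).

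DR5 message was also compared between the untreated groups. The untreated day-7 libraries held 32.8, 39.3 and 35.2 CPM, all above the day-0 libraries. The log2 fold-change of TNFRSF10B was 0.68 ± 0.15 (SE), with an unadjusted p of 0.00119 and an adjusted p of 0.0686. None of the 7 genes passed the adjusted threshold between untreated day-7 and day-0 cells, where 0.587% of all genes did in either direction. At an unadjusted p under 0.05 there were 2, TNFSF10 and TNFRSF10B, and the share of all genes at that threshold was not counted. DESeq2 called 1, TNFRSF10B (0.67, adjusted p = 0.00184), and with it 8.21% of all genes.

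Set against untreated day-7 cells in place of day-0 cells, the DR5 difference remained past the threshold with ND-646 (0.61 ± 0.14, SE, adjusted p = 0.011) and TVB-3166 (0.34 ± 0.11, adjusted p = 0.0279), the latter call being lost in a fit of all 24 libraries (0.33, adjusted p = 0.0798). For TNFRSF10B in the other 4 TIS groups it was 0.16 with bleomycin (adjusted p = 0.347), -0.0027 with doxorubicin (adjusted p = 0.986), -0.093 with alisertib (adjusted p = 0.598) and -0.056 with palbociclib (adjusted p = 0.664). With day 7 as the reference, whose labels name no refeeding, 4 of the 6 calls for this receptor were thus lost. Over the 7 genes, the number higher than at day 7 was 5 with ND-646, beside 17.2% of all genes tested, and 6 with TVB-3166, beside 25.4%. It was 5 with bleomycin (22.4%), 4 with doxorubicin (21.9%) and 4 with palbociclib (22.0%). With alisertib only CFLAR was higher, beside 9.55% of all genes, and in the fit of all 24 libraries none was (CFLAR 0.31, adjusted p = 0.12). No member passed the adjusted threshold as lower than at day 7 in any TIS group, where 9.49% (alisertib) to 26.1% (TVB-3166) of all genes did.

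**Figure D3:**
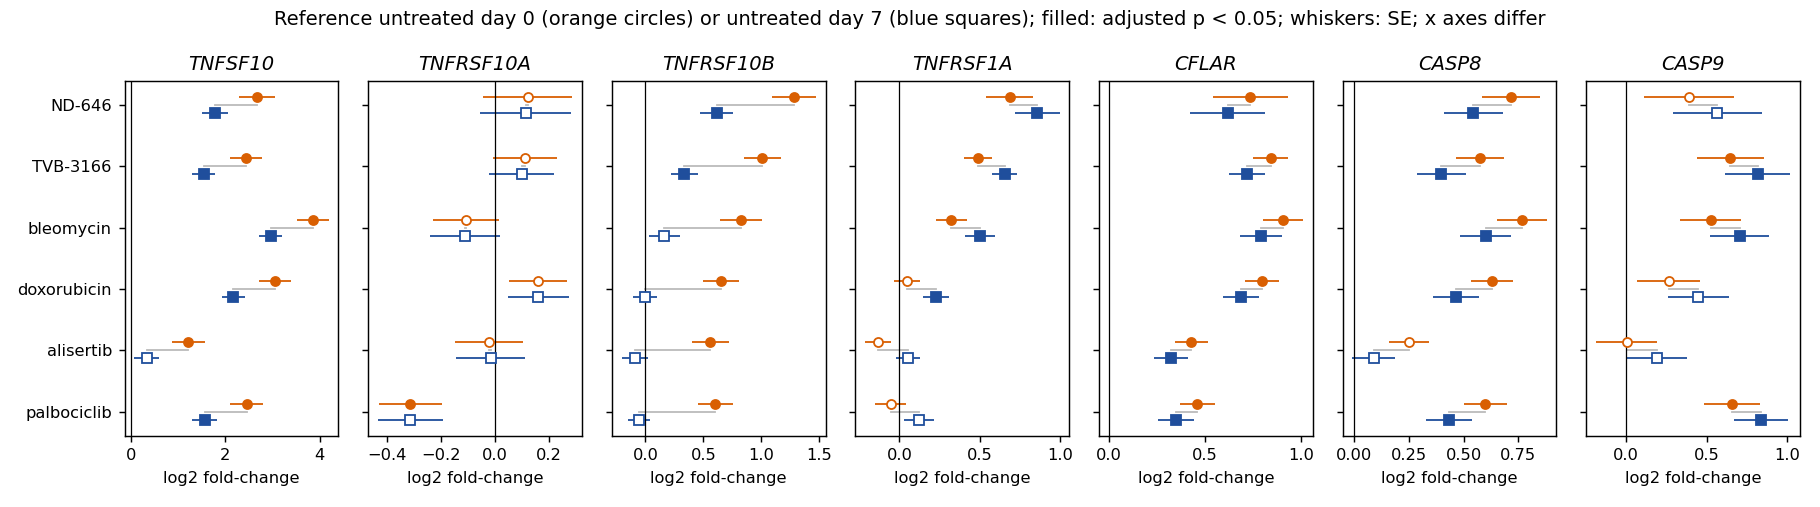
Log2 fold-change (horizontal axes, which differ between genes) of each gene in the 6 TIS groups relative to untreated cells of day 0 and of day 7, with whiskers for the SE. The TNFRSF10B values of bleomycin, doxorubicin, alisertib and palbociclib TIS cells lie between 0.56 and 0.82 against day 0 and between -0.093 and 0.16 against day 7.

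DR4 message (TNFRSF10A, at chr8:23047965-23082615 on the minus strand in GRCh37), measured by 575 to 1387 reads per library, had group means within 1.38-fold of each other. It was 28.7, 25.8 and 23.3 CPM at day 0. Group means lay between 20.9 CPM with palbociclib and 28.7 CPM with doxorubicin. Palbociclib TIS cells held 19.97, 20.2 and 22.4 CPM, below every day-0 library. Their log2 fold-change was -0.31 ± 0.12 (SE, adjusted p = 0.04), and this call for TNFRSF10A was lost without palbociclib replicate 1 (-0.29, adjusted p = 0.116) or 2 (-0.29, adjusted p = 0.116) and without day-0 replicate 1 (-0.23, adjusted p = 0.126) or 2 (-0.30, adjusted p = 0.0929). Against day-7 cells TNFRSF10A with palbociclib was also -0.31, with an adjusted p of 0.0529. In the other 5 TIS groups the value ran from -0.11 with bleomycin to 0.16 with doxorubicin and did not pass the test.

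TNFR1 message (TNFRSF1A) was the most abundant of the 7 per length, at 43.7 CPM per kilobase of its reference transcript over all libraries. It was 86.3, 80.7 and 84.7 CPM at day 0. ND-646 TIS cells held 159, 122 and 125 CPM, replicate 1 standing above the other 2. TVB-3166 TIS cells held 113, 117 and 122 CPM. Both groups were above every untreated library, with log2 fold-changes of 0.68 ± 0.15 (SE, adjusted p = 0.00657) and 0.49 ± 0.09 (adjusted p = 0.000675). Bleomycin TIS cells, at 106, 111 and 96.2 CPM, were also above day 0 (0.32 ± 0.10, adjusted p = 0.0213). For TNFRSF1A the bleomycin call was lost without bleomycin replicate 1 (0.31, adjusted p = 0.0534) or 2 (0.27, adjusted p = 0.0617) and without day-0 replicate 2 (0.30, adjusted p = 0.0771) or 3 (0.33, adjusted p = 0.0503).

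In doxorubicin, alisertib and palbociclib TIS cells the difference from day 0 in TNFR1 message did not pass the test, with log2 fold-changes of 0.05, -0.13 and -0.05 (adjusted p = 0.652, 0.223 and 0.657). Against day-7 cells the TNFRSF1A value was 0.23 ± 0.08 (SE) with doxorubicin and passed the threshold (adjusted p = 0.0395), but not in the fit of all 24 libraries (0.20, adjusted p = 0.119). It was 0.05 with alisertib (adjusted p = 0.66) and 0.12 with palbociclib (adjusted p = 0.3).

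CFLAR encodes c-FLIP, a caspase-8 homolog that lacks protease activity. Its level was 45.7, 42.8 and 40.3 CPM at day 0 and 45.3, 52.6 and 42.4 CPM in untreated day-7 cells. Bleomycin TIS cells held 73.6, 80.5 and 86.0 CPM, TVB-3166 TIS cells 74.5, 76.2 and 79.3 CPM, and doxorubicin TIS cells 74.3, 71.8 and 75.7 CPM. These 3 groups lay above all untreated libraries, with log2 fold-changes from day 0 of 0.90 ± 0.10 (SE, adjusted p = 0.000167), 0.84 ± 0.09 (adjusted p = 2.23e-05) and 0.80 ± 0.09 (adjusted p = 9.27e-05). Palbociclib TIS cells (56.2, 59.7 and 61.3 CPM) and alisertib TIS cells (57.7, 57.7 and 58.4 CPM) were also above all untreated libraries, with log2 fold-changes of 0.46 ± 0.09 (adjusted p = 0.00166) and 0.43 ± 0.09 (adjusted p = 0.00375).

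ND-646 TIS cells were split in CFLAR, with 52.7 CPM in replicate 1 and 80.1 and 82.3 CPM in replicates 2 and 3. The log2 fold-change was 0.74 ± 0.19 (SE, adjusted p = 0.0163). It was 0.92 without ND-646 replicate 1. The CFLAR call was lost without ND-646 replicate 2 (0.64, adjusted p = 0.0582) or 3 (0.63, adjusted p = 0.058) and without day-0 replicate 2 (0.73, adjusted p = 0.0639) or 3 (0.69, adjusted p = 0.0688). Against untreated day-7 cells CFLAR was higher in all 6 TIS groups, by 0.32 with alisertib to 0.79 with bleomycin on the log2 scale, and in 5 of them in the fit of all 24 libraries, where CFLAR with alisertib had an adjusted p of 0.12.

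CASP8, the initiator caspase of the death receptor route, was 24.1, 24.1 and 23.1 CPM in proliferative day-0 cells. Bleomycin TIS cells held 37.3, 43.1 and 40.5 CPM and ND-646 TIS cells 38.3, 39.1 and 40.3 CPM. Doxorubicin TIS cells held 37.6, 33.4 and 38.4 CPM, palbociclib TIS cells 33.3, 37.3 and 37.4 CPM, and TVB-3166 TIS cells 33.3, 39.4 and 33.1 CPM. All libraries of these 5 groups were above all untreated libraries. The log2 fold-change of CASP8 from day 0 was 0.77 ± 0.11 (SE) with bleomycin (adjusted p = 0.000527), 0.72 ± 0.13 with ND-646 (adjusted p = 0.00328) and 0.63 ± 0.10 with doxorubicin (adjusted p = 0.000629). It was 0.60 ± 0.10 with palbociclib (adjusted p = 0.000527) and 0.57 ± 0.11 with TVB-3166 (adjusted p = 0.000939).

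Alisertib TIS cells held 27.7, 27.5 and 29.7 CPM of CASP8, above day 0 but overlapping untreated day-7 cells at 26.5, 30.1 and 23.997 CPM. Their log2 fold-change from day 0 was 0.25 ± 0.09 (SE) and missed the threshold (adjusted p = 0.0545). It passed with size factors by relative log expression (0.26, adjusted p = 0.0491) and with a minimum of 10 reads in every library (0.26, adjusted p = 0.0457). Against day 7 it was 0.09 (adjusted p = 0.549).

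CASP9 was a low-abundance message, with 127 to 325 reads per library. It was 4.58, 6.30 and 5.03 CPM at day 0. Palbociclib TIS cells held 9.41, 7.87 and 7.76 CPM, above all day-0 libraries, with a log2 fold-change of 0.66 ± 0.18 (SE, adjusted p = 0.00939). TVB-3166 TIS cells held 10.7, 7.05 and 7.01 CPM (0.65 ± 0.21, adjusted p = 0.0213), a CASP9 call lost without TVB-3166 replicate 1 (0.41, adjusted p = 0.106) or day-0 replicate 3 (0.61, adjusted p = 0.0552). Bleomycin TIS cells held 7.67, 7.98 and 7.13 CPM (0.52 ± 0.19, adjusted p = 0.0441).

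The bleomycin call for CASP9 was lost without bleomycin replicate 1 (0.52, adjusted p = 0.0823), 2 (0.48, adjusted p = 0.0979) or 3 (0.57, adjusted p = 0.0659), and without day-0 replicate 1 (0.42, adjusted p = 0.13) or 3 (0.49, adjusted p = 0.111). ND-646 TIS cells, at 9.69, 6.33 and 4.98 CPM, and doxorubicin TIS cells, at 7.57, 5.21 and 6.10 CPM, overlapped day 0. Their CASP9 log2 fold-changes were 0.39 (adjusted p = 0.296) and 0.26 (adjusted p = 0.289). It was 0.00 with alisertib (adjusted p = 0.995).

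Ranked by mean, the groups were rarely separable from their neighbours. With all 24 libraries in one fit, bleomycin stood above doxorubicin for TNFSF10 (log2 difference 0.80, adjusted p = 0.0345), and TVB-3166, the fifth in rank, stood above alisertib (1.21, adjusted p = 0.00205). For TNFRSF10B only the step from alisertib down to day 0, the lowest group, passed (0.56, adjusted p = 0.00803). For CASP8 only the step from TVB-3166, the fifth, to alisertib passed (0.32, adjusted p = 0.0174). For TNFRSF10A, TNFRSF1A, CFLAR and CASP9 no neighbouring pair passed.

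Agents of one class were then compared directly. Between TVB-3166 and ND-646, which block successive enzymes of fatty acid synthesis, none of the 7 genes passed the test, where 0.717% of all genes did. At an unadjusted p under 0.05 the count was 0 as well, and the share of all genes there was not counted. DESeq2 called 0, beside 5.58% of all genes. The share of all genes rested on single libraries, with 1518 genes called without ND-646 replicate 1 and 0 without any 1 of the other 5 libraries, in place of 98. The largest differences were -0.28 ± 0.15 (SE) for TNFRSF10B (adjusted p = 0.428), 0.25 ± 0.29 for CASP9 (adjusted p = 0.73) and -0.24 ± 0.20 for TNFSF10 (adjusted p = 0.613), each TVB-3166 minus ND-646. TNFRSF1A was lower in all 3 TVB-3166 libraries than in all 3 ND-646 libraries, by -0.20 ± 0.13 (adjusted p = 0.523).

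Bleomycin TIS cells had more TRAIL message than doxorubicin TIS cells, by 0.80 ± 0.19 on the log2 scale (SE, 1.74-fold, adjusted p = 0.0299). TNFSF10 was the only one of the 7 genes called, where 6.54% of all genes were higher with bleomycin. These 906 higher genes became 508 without bleomycin replicate 2, 601 without doxorubicin replicate 2, 79 without doxorubicin replicate 3 and 46 without doxorubicin replicate 1. The call was lost without bleomycin replicate 2 (0.77, adjusted p = 0.0557) or 3 (0.71, adjusted p = 0.0636) and without doxorubicin replicate 1 (0.64, adjusted p = 0.118) or 3 (0.87, adjusted p = 0.0932). The doses of these drugs differed, so the values describe these cultures and not equal exposures.

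Between the cell-cycle kinase inhibitors, 3 genes were higher with palbociclib than with alisertib, where 13.4% of all genes were. None passed the threshold as lower, where 14.9% of all genes did. TNFSF10 differed by 1.24 ± 0.22 (SE, 2.36-fold, adjusted p = 0.00192), CASP9 by 0.66 ± 0.16 (adjusted p = 0.0112) and CASP8 by 0.36 ± 0.08 (adjusted p = 0.00828). The CASP9 call was lost without alisertib replicate 3 (0.55, adjusted p = 0.0537). TNFRSF10A differed by -0.29 ± 0.11 and missed the threshold (adjusted p = 0.0878). It passed with the replicate block (-0.28, adjusted p = 0.0271) and without alisertib replicate 2 (-0.38, adjusted p = 0.0388). CFLAR differed by 0.04 ± 0.07 (adjusted p = 0.716).

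Because c-FLIP and procaspase-8 are recruited to the same adaptor, the CFLAR level was also read relative to the CASP8 level within each library, as log2 CPM of the former minus log2 CPM of the latter. It was 0.85 ± 0.06 (SD, n = 3) at day 0 and 0.80 ± 0.03 in untreated day-7 cells. It was 1.12 ± 0.16 with TVB-3166, 1.03 ± 0.05 with alisertib and 1.02 ± 0.07 with doxorubicin, each above every day-0 library. It was 0.715 ± 0.04 with palbociclib, below every day-0 library. An exact permutation test of 3 libraries against 3 cannot give a p under 0.1, and these 4 groups each reached it (two-sided, 0.175 after adjustment over 7 groups). Bleomycin TIS cells, at 0.99 ± 0.09, overlapped day 0 (exact permutation p = 0.2). The ND-646 group, at 0.84 ± 0.33, held the widest spread, and its difference from day 0 was -0.01 with all 3 libraries and 0.18 without replicate 1.

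**Figure D4:**
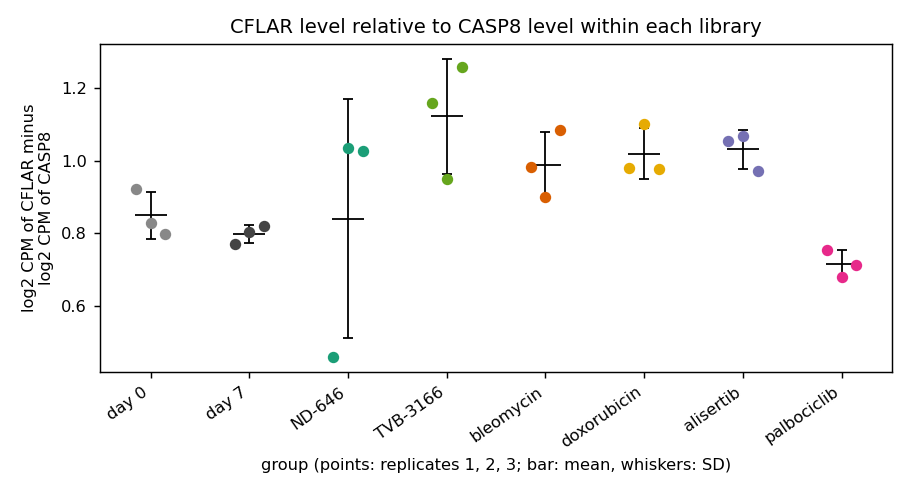
Log2 CPM of CFLAR minus log2 CPM of CASP8 (vertical axis, which does not start at 0) in each library of the 8 groups, with the mean and SD. Palbociclib TIS cells lie lowest by mean at 0.715 and TVB-3166 TIS cells highest at 1.12, and 1 of the 3 ND-646 libraries lies far below the other 2.

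Across the 24 libraries the log2 levels of TNFSF10 and CASP8 had a Pearson r of 0.926, those of TNFSF10 and CFLAR 0.864, and those of CFLAR and CASP8 0.860. TNFSF10 and TNFRSF10A had an r of -0.0449. These values are descriptions, since replicates of a group share their treatment. Among all 14078 genes kept by the filter, the 3 with levels most like those of TNFSF10 were PIGR, PLAAT4 (both 0.969) and APOL6 (0.968). For CASP8 they were GBP3 (0.949), ELK3 (0.943) and CYP2T1P (0.941), and for CFLAR they were ZNF292 (0.949), TBC1D9 (0.947) and ITGB3 (0.941). TNFRSF10B was most like IFRD1 (0.919), GTPBP2 (0.907) and EDEM1 (0.903), and TNFRSF1A was most like STIM1 (0.955), CD63 (0.948) and NEU1 (0.946). For TNFRSF10A (TMTC2, VANGL1 and SYNM, 0.739 to 0.747) and CASP9 (C16orf91, GSN and PEA15, 0.801 to 0.814) the highest values were lower.

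A wider list of 45 genes of death receptor and caspase pathways, of which 35 were in the table, moved in both directions. In ND-646 TIS cells 14 were higher and 6 lower than at day 0, with a median log2 fold-change of 0.25 beside 0.02 over all genes tested. In TVB-3166 TIS cells 12 were higher and 8 lower (median 0.11 beside -0.01). With bleomycin 13 were higher and 6 lower (0.18 beside 0.00), with doxorubicin 13 and 4 (0.16 beside 0.01), and with palbociclib 13 and 6 (0.13 beside -0.01). With alisertib 8 were higher and 8 lower (0.11 beside -0.01). Over all genes tested, the shares lower than at day 0 were 18.8% with ND-646, 27.7% with TVB-3166, 25.3% with bleomycin, 24.8% with doxorubicin, 19.6% with alisertib and 27.2% with palbociclib, and the shares higher are given above. None of the list passed between untreated day-7 and day-0 cells. Against day 7 the counts higher and lower were 11 and 4 with ND-646, 16 and 7 with TVB-3166, 15 and 6 with bleomycin, 14 and 5 with doxorubicin, 5 and 2 with alisertib, and 10 and 3 with palbociclib. The shares of all genes lower than at day 7 were 17.1% with ND-646, 26.1% with TVB-3166, 23.2% with bleomycin, 21.5% with doxorubicin, 9.49% with alisertib and 22.9% with palbociclib.

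Single libraries moved some of these counts by over 1.5 times. The ND-646 count of higher genes was 9 without day-0 replicate 1 and 8 without day-0 replicate 2. The shares of all genes higher were then 13.7% and 12.2%, in place of 19.1%. Its count of lower genes was 3 without day-0 replicate 3, where 1890 of all genes were lower in place of 2552. The doxorubicin count of lower genes was 2 without doxorubicin replicate 3 or day-0 replicate 2, where 2642 and 2873 of all genes were lower, in place of 3418. The palbociclib count of higher genes was 8 without day-0 replicate 3, where 25.1% of all genes were higher in place of 26%. The alisertib count of higher genes was 3, 4 and 5 without alisertib replicate 2, alisertib replicate 3 and day-0 replicate 2. The shares of all genes higher with alisertib were then 11.7%, 10.7% and 14.1%, in place of 17.7%. The alisertib count of lower genes was 4, 3 and 3 without alisertib replicates 1, 2 and 3, and 5 and 4 without day-0 replicates 1 and 2. Of all genes 2156, 1832 and 1650, and 2582 and 2021, were then lower, in place of 2697.

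Among the ligands of this list, TNFSF15, which encodes the TNF family cytokine TL1A, rose in all 6 TIS groups. Its mean was 1.29 ± 0.25 CPM (SD, n = 3) at day 0 and 19.9 ± 3.2 CPM in ND-646 TIS cells, and its log2 fold-changes ran from 2.28 with alisertib to 3.94 with ND-646. TNF rose in 5 groups, from 0.79 with palbociclib to 2.51 with bleomycin, and was 0.27 with alisertib (adjusted p = 0.533). Against day-7 cells TNF was past the threshold only with bleomycin (1.83, adjusted p = 0.0042) and doxorubicin (1.43, adjusted p = 0.0027). The palbociclib call for TNF was lost without palbociclib replicate 1 (0.73, adjusted p = 0.0881) or 3 (0.80, adjusted p = 0.0681) and without day-0 replicate 2 (0.80, adjusted p = 0.0661) or 3 (0.67, adjusted p = 0.0899). Of the receptors, TNFRSF21, which encodes DR6, rose in 5 groups, by 0.77 to 1.26, and was 0.11 with alisertib (adjusted p = 0.435). TNFRSF25, which encodes the TL1A receptor DR3, rose in 5 groups and was 1.03 with bleomycin, where the libraries spread from 0.874 to 5.43 CPM (adjusted p = 0.15), and 1.49 without bleomycin replicate 1 (adjusted p = 0.00498). Its ND-646 call was lost without ND-646 replicate 3 (1.15, adjusted p = 0.0618) and without day-0 replicate 1 (1.28, adjusted p = 0.0672) or 2 (1.46, adjusted p = 0.0674). Against day-7 cells TNFRSF25 was 0.60 with ND-646 (adjusted p = 0.217) and passed with 4 other drugs, but in the fit of all 24 libraries it passed with none (lowest adjusted p = 0.0844, with palbociclib).

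Inhibitors and ubiquitin-related genes of receptor complexes moved in both directions. BIRC3, which encodes cIAP2, rose in all 6 groups, from 2.37 ± 0.15 CPM (SD, n = 3) at day 0 to 32.3 ± 6.0 CPM with bleomycin, and by 1.35 with alisertib on the log2 scale. TNFAIP3, which encodes the NF-kB inhibitor A20, rose in 5 groups, by 0.53 with palbociclib to 2.01 with bleomycin. RBCK1, which encodes the LUBAC subunit HOIL-1, rose in 5 groups, by 0.35 with alisertib to 1.13 with ND-646. The palbociclib call for TNFAIP3 was lost without palbociclib replicate 1 (0.55, adjusted p = 0.0696) or 3 (0.35, adjusted p = 0.166) and without any 1 day-0 library (0.49 to 0.57, adjusted p from 0.0612 to 0.0633), and against day 7 TNFAIP3 was 0.51 (adjusted p = 0.0617). The alisertib call for RBCK1 was lost without alisertib replicate 2 (0.24, adjusted p = 0.204) or 3 (0.35, adjusted p = 0.124) and without day-0 replicate 2 (0.36, adjusted p = 0.104) or 3 (0.27, adjusted p = 0.142). Of the others, the RBCK1 partner RNF31 and the caspase inhibitor XIAP rose in all 6 groups. XIAP with ND-646 overlapped day 0 and was near the threshold (0.79, adjusted p = 0.0488). RNF31 was near it with ND-646 (0.41, adjusted p = 0.0421) and alisertib (0.27, adjusted p = 0.0434). BIRC2 rose in 5 groups, CYLD in 2, and SHARPIN and BIRC6 in 1 each, whereas OTULIN fell in 3 and TRAF2 in 2. OTULIN was -0.37 with alisertib, -0.61 with TVB-3166 and -0.62 with palbociclib. In untreated day-7 cells it was also -0.37 relative to day 0, past no threshold (adjusted p = 0.0892). BIRC5, which encodes survivin and is expressed mainly in dividing cells, fell in all 6, from 126 ± 10 CPM at day 0 to 15.7 ± 6.7 CPM with ND-646. With alisertib the BIRC5 call was lost against day 7 (-0.37, adjusted p = 0.0622) and, against day 0, in the fit of all 24 libraries (-0.65, adjusted p = 0.0962).

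Adaptors, kinases and caspases were mixed. TRADD, the adaptor of TNFR1, rose in 3 groups, by 1.49 with ND-646, 0.87 with TVB-3166 and 0.53 with alisertib. The alisertib call for TRADD was lost without alisertib replicate 2 (0.47, adjusted p = 0.118) or 3 (0.51, adjusted p = 0.104) and without day-0 replicate 1 (0.50, adjusted p = 0.0535) or 2 (0.55, adjusted p = 0.0614), and against day 7 TRADD was 0.38 (adjusted p = 0.142). The adaptor FADD rose in 3 groups. The kinase RIPK1 fell in 2, alisertib (-0.31) and palbociclib (-0.33). In untreated day-7 cells RIPK1 was -0.35 relative to day 0, with all libraries below day 0 but past no threshold (adjusted p = 0.106). Of the necroptosis genes, RIPK3 fell in 3 groups, with log2 fold-changes of -1.48 with bleomycin, -0.78 with doxorubicin and -0.75 with alisertib, and MLKL fell in 4. The doxorubicin call for RIPK3 was lost without doxorubicin replicate 2 or 3 or day-0 replicate 1 or 2 (-0.78, -0.68, -0.72 and -0.67, adjusted p from 0.0578 to 0.099). Its alisertib call was lost without any 1 alisertib library or day-0 replicate 1 or 2 (-0.62 to -0.79, adjusted p from 0.0731 to 0.112).

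CASP4, an inflammatory caspase, rose in all 6 groups, from 3.00 ± 0.80 CPM at day 0 to 42.7 ± 10.96 CPM (SD) with ND-646, and by 0.85 with alisertib on the log2 scale. The alisertib call for CASP4 was lost without alisertib replicate 2 (0.72, adjusted p = 0.0725) and against day 7 (0.44, adjusted p = 0.125). CYCS, which encodes cytochrome c, fell in all 6 groups, with log2 fold-changes from -0.45 with alisertib to -1.01 with ND-646, and APAF1, its partner in the apoptosome, passed the test in none. With alisertib the CYCS call was lost against day 7 (-0.22, adjusted p = 0.154). Of the genes acting at mitochondria, BID fell in 4 groups and DIABLO in 2, and HTRA2 passed in none. DFFB, the nuclease of apoptotic DNA cleavage, fell with ND-646 (-1.01) and bleomycin (-1.29), the former call being lost without day-0 replicate 2 (-0.99, adjusted p = 0.0689) or 3 (-0.88, adjusted p = 0.0823). Against day 7 DFFB also passed with TVB-3166 (-0.67, adjusted p = 0.00823) and doxorubicin (-0.69, adjusted p = 0.0048). TNFRSF11B, a decoy receptor, fell with ND-646 (-2.01) and TVB-3166 (-1.72), with as few as 2 reads in a library. Its ND-646 call was lost without ND-646 replicate 2 (-1.57, adjusted p = 0.0883) or 3 (-1.76, adjusted p = 0.0901) and without day-0 replicate 1 (-1.91, adjusted p = 0.0856) or 3 (-1.79, adjusted p = 0.0933), and against day 7 (-1.96, adjusted p = 0.0553). Without ND-646 replicate 1, which held 11 reads beside 2 and 4 in the others, TNFRSF11B was -3.01 with ND-646.

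**Figure D5:**
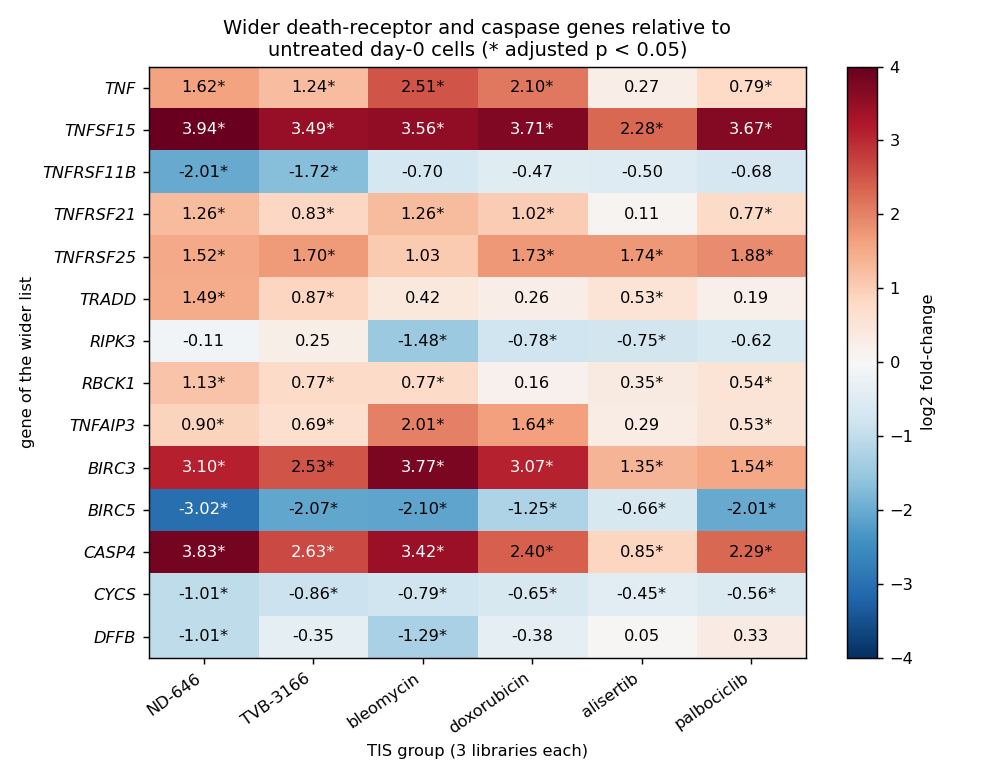
Log2 fold-change of the 14 genes of the wider list with an adjusted p under 0.05 and a change of at least 2-fold in 1 or more TIS groups (vertical axis), relative to untreated day-0 cells, in the 6 TIS groups (horizontal axis), with an asterisk for an adjusted p under 0.05. TNFSF15, BIRC3 and CASP4 are higher in all 6 groups and BIRC5 and CYCS are lower in all 6.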

How the data were processed

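RNA-seq was performed on 24 libraries of SKBR3 cells in 8 groups of 3, assigned from the sample labels. The library kit was a stranded mRNA kit per the labels and a stranded total RNA kit per the study's methods. According to the submitters' processing notes the reads were processed with bcl2fastq, HISAT2, StringTie and DESeq2 on GRCh37. The values the authors deposited are raw counts of reads for each gene, and the counting settings are not given in the sources used here. The table lists 14493 genes with a lowest count of 1, so genes without reads in some library are outside the tests. Total counts were 29405121 to 44316330 per library (median 32053038), and with 3 libraries a group the spread between replicates, not counting error, limits most values.

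Each pair of groups was fitted alone with edgeR 4.0.16 (R 4.3.3; filterByExpr, TMM, glmQLFit and glmQLFTest, two-sided) with Benjamini-Hochberg adjustment over all genes tested and a threshold of 0.05. Levels are CPM on TMM library sizes, log2 CPM used a prior count of 2, and levels per kilobase used MANE Select transcript lengths. Standard errors are log2 fold-change divided by the square root of F. The scripts were tested on simulated data. The members, the wider list and the tests were chosen with earlier results of these data known. Named genes were the 8 members, the genes of the wider list with an adjusted p under 0.05 and at least 2-fold change in a TIS group, and the 3 genes most correlated with each member. Other genes of the wider list were named after their values were seen. Some genes of the wider list are not reported here by name.

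Alternatives were DESeq2 1.42.0, relative log expression in place of TMM, testing without the low-count filter or with a stricter one (10 reads or more in each library), a joint fit of the 24 libraries, a replicate block, day-7 cells as the reference (alone or in the joint fit), a prior count of 0.5 for log2 CPM, and leaving out each library in turn. Replicate numbers were taken as pairing groups where the deviations of every same-numbered pair had a correlation over 0.1. That held for TVB-3166 and ND-646 (0.213 to 0.380) and for palbociclib and alisertib (0.174 to 0.271), and not for the other 8 comparisons.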

Additional observations from a re-analysis of the deposited data

Results flagged for a closer look

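Drugs of one class were compared directly, and a difference past the adjusted threshold of edgeR's quasi-likelihood test was found for 4 values. TNFSF10 was higher with bleomycin than with doxorubicin by 0.80 on the log2 scale, beside 6.54% of all genes. This call was lost when certain single libraries were left out, as given above. TNFSF10 was higher with palbociclib than with alisertib by 1.24, where 13.4% of all genes were higher. CASP8 was higher with palbociclib than with alisertib by 0.36, and CASP9 by 0.66. The CASP9 call was lost when a certain alisertib library was left out, as given above.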

How the results depend on the processing

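Against untreated day-7 cells the number of the 7 genes called with alisertib was 1 in place of 3, TNFRSF10B changed sign with doxorubicin (-0.0027), alisertib (-0.093) and palbociclib (-0.056), TNFRSF1A changed sign with alisertib (0.05) and palbociclib (0.12), and so did TNF (-0.40) and DFFB (-0.25) with alisertib. With day 7 as the reference in the fit of all 24 libraries, an alternative chosen after seeing the data, the alisertib number was 0, the signs of TNFRSF10B (-0.027, -0.11 and -0.065), TNFRSF1A (0.037 and 0.12), TNF (-0.41) and DFFB (-0.27) changed in the same groups, and CASP9 passed with ND-646 (0.58, adjusted p = 0.0389). Between untreated groups DESeq2, the fit of all 24 libraries and the replicate block each called 1 gene in place of 0, TNFRSF10B, beside 8.21%, 3.13% and 9.26% of all genes in place of 0.587%. The replicate block called 2 in place of 1 between bleomycin and doxorubicin, adding TNFRSF1A (0.28, adjusted p = 0.035), beside 19.5% of all genes in place of 12.1%. It moved TNFRSF10A past the threshold between palbociclib and alisertib, where the numbers pair the samples. There the block called 39.9% of all genes in place of 28.3%. Between TVB-3166 and ND-646, which the numbers also pair, it changed no call of the 7 genes and called 310 genes in place of 98. For TNFRSF10A with palbociclib against day 0 the block gave -0.31 (adjusted p = 0.0515) and a minimum of 10 counts -0.30 (adjusted p = 0.0506). For CASP9 with bleomycin, no filter gave an adjusted p of 0.0576 and the fit of all libraries 0.0557. The fit of all libraries called 5 genes of the wider list lower with alisertib in place of 8, and BIRC5 then missed the threshold there (-0.65, adjusted p = 0.0962). RBCK1 with alisertib missed it in that fit (adjusted p = 0.0597) and without the filter (0.0511), and TNF with palbociclib in that fit (0.0513) and with DESeq2 (0.065). The causes were not tested. Leaving out 1 library gave 4 to 5 called genes with ND-646 and 5 to 6 with TVB-3166, beside 25.1% to 54.9% and 44.9% to 54.3% of all genes. With bleomycin the number was 4 to 5 and with doxorubicin 4, beside 39.4% to 48% and 36.9% to 48.4%. With alisertib the number was 1 to 3, beside 22.6% to 37.5%. It was 1 without alisertib replicate 2 or 3, where 24.9% and 22.6% of all genes were called. With palbociclib it was 5 to 6, beside 42.9% to 51.2%. Between untreated groups it was 0, beside 0% to 0.684%, and between TVB-3166 and ND-646 0, beside 0% to 11%. Between bleomycin and doxorubicin it was 0 to 1, beside 0.518% to 14.8%, and between palbociclib and alisertib 2 to 4, beside 20.3% to 24.1%. Signs changed only among values past no threshold: CASP9 (-0.13 to 0.15), TNFRSF10A (-0.13 to 0.069), TNF (-0.016 to 0.44) and DFFB (-0.091 to 0.22) with alisertib, TNFRSF1A with palbociclib (-0.14 to 0.015), RIPK3 with TVB-3166 (-0.044 to 0.51), TNFRSF10A between untreated groups (-0.13 to 0.10), TNFRSF10A (-0.11 to 0.087) and CFLAR (-0.078 to 0.21) between TVB-3166 and ND-646, and TNFRSF10B (-0.063 to 0.14) and TNFRSF1A (-0.0008 to 0.15) between palbociclib and alisertib. DESeq2, other size factors and the low-count filters reversed none of the members. Depth limits low values such as TNFSF10 at day 0 (20 to 46 reads), TNF at day 0 (23 to 39) and RIPK3 with bleomycin (22 to 29). It also limits TNFRSF25 with bleomycin (as few as 26 reads) and TNFRSF11B (as few as 2 reads).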
